A study of Homo sapiens with 12 samples.

Results

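The regions described here are the AGO2-bound RNA regions that lay outside annotated protein-coding, miRNA and other small RNA genes. They were found in HCT116 cells, an established human colorectal carcinoma line, by eCLIP, which crosslinks RNA to a protein with ultraviolet light, precipitates the protein and sequences the RNA fragments that come with it. Each region of both deposited lists on chromosomes 1 to 22 and X was set against the gene spans of RefSeq (GRCh38.p14, the coordinates of hg38). It was kept when it overlapped no protein-coding, miRNA or other small RNA gene, and was then put into 1 of 3 classes, namely lncRNA gene, pseudogene or no annotated gene. This left 233 of 4111 regions, which were 69 of the 1190 in the list for wild-type AGO2 (FH-AGO2 WT) and 164 of the 2921 in the list for the mutant (FH-AGO2 5xA).

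Both forms are tagged AGO2 precipitated with an anti-FLAG antibody after 48 h of culture and 400 mJ/cm2 of ultraviolet light. The mutant carries alanines in place of residues that are phosphorylated in AGO2. The series holds 12 samples in 6 groups of 2, an input and an immunoprecipitate of each of AGO2_KO, FH-AGO2_WT and FH-AGO2_5xA cells, and each list names both immunoprecipitates of its genotype, so there was 1 list per genotype and no replicate to set a difference against. The sources used here do not say whether the tagged lines were made from the knockout cells, or whether each is 1 clone. The input and knockout samples were not analysed here. No read count goes with a region, so depth is unknown, and every p-value below compares the regions of these lists, treated as independent, and not the genotypes across cultures.

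AGO2 carries a miRNA, whose seed (bases 2 to 8) pairs with target RNAs, mostly in the 3' ends of mRNAs. Long noncoding RNAs (lncRNAs) and transcribed pseudogenes can hold such sites as well, and some miRNAs are themselves processed from lncRNA transcripts. A processed pseudogene is a DNA copy of a spliced mRNA, so a short read from the mRNA can also match the copy. A region outside every annotated gene can lie on a transcript that runs past the annotated end of a gene, or on an RNA that the annotation does not hold.

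No genome sequence was used here, but RefSeq's promoter windows (250 bases before to 50 after a gene start, build GRCh38.p14) covered at least 60 bases of 4 places bound. They are shown, 5′ to 3′ on the strand of the region, because the bases under a region can be read there. The letters are those of the reference sequence and not of sequenced reads. Capitals would mark a match to bases 2 to 7 of a miRNA seed, and none was found, so every letter is in lower case.
LOC105372249 (chr19:4581565-4581671, minus strand, 107 of the 109 bases of the 5xA region): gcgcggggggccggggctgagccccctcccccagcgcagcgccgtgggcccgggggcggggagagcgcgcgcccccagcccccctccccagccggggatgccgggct
LINC02604 (chr7:66904026-66904169, plus strand, 144 of the 176 bases of the 5xA region): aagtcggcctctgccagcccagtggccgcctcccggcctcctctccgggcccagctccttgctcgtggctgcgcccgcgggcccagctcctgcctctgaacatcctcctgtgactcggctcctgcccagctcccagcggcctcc
LOC124904532 upstream (chr1:227969664-227969737, plus strand, the whole 74-base 5xA region): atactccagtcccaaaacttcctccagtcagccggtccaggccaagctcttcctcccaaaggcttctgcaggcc
PANK3 upstream (chr5:168579388-168579554, minus strand, the whole 167-base 5xA region): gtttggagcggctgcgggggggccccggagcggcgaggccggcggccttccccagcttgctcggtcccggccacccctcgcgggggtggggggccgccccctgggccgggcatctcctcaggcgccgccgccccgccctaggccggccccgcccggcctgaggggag

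The LOC105372249 place, on the strand opposite to that lncRNA gene, was in both lists, and the WT region there covered 94 of the same bases. The span of that gene begins at base 4580561. The stretch printed lies inside the span, and its window does not sit at the start of the span. The other 3 places were in the 5xA list only. The letters show G and C in 86.9% of the LOC105372249 bases, 83.2% of the PANK3 bases, 72.9% of the LINC02604 bases and 58.1% of the LOC124904532 bases. Stretches at the same place in all 35116 promoter windows had medians of 55.1%, 58.7%, 60.4% and 59.5%. The LOC105372249 and PANK3 stretches were richer in G and C than 99.6% and 98.1% of those windows, LINC02604 than 80.5% and LOC124904532 than 47.1%.

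Matches to 6 miRNA families were searched on both strands of each stretch. The motifs were TACCTC for let-7 (hsa-let-7a-5p, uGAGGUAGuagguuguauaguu, seed in capitals), CACTTT for miR-17, TTGCAC for miR-19, TAAGCT for miR-21, TGCAAT for miR-92 and GGTGCT for miR-29. None of the 4 stretches held any of them. A single motif was in 0.863% to 4.57% of the windows of the same length and place on the strand read. The absence says only that these letters are not in these bases.

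In each class the 5xA list held more regions than the WT list. lncRNA genes held 25 WT and 61 5xA regions, pseudogenes 17 and 44, and sites outside annotated genes 27 and 59, which is 2.44, 2.59 and 2.19 times as many with 5xA. Protein-coding genes held 1044 and 2627 regions, 2.52 times as many. A region in both a lncRNA gene and a pseudogene was counted under lncRNA genes. With pseudogenes put first instead, lncRNA genes held 22 WT and 49 5xA regions and pseudogenes 20 and 56. Together the classes were 5.80% of WT regions (95% exact Clopper-Pearson interval 4.54 to 7.28) and 5.61% of 5xA regions (4.81 to 6.51). All regions together were 2.45 times as many with 5xA, close to the ratio of 2.38 for these classes.

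Sharing meant an overlap of 1 base or more with a region of the other list, both on 1 strand. Of the 69 WT regions, 20 (29.0%, 18.7 to 41.2) had no 5xA partner, beside 18.7% of all WT regions and 18.3% of the 1044 in protein-coding genes. The difference from protein-coding genes had an odds ratio of 1.82 and did not pass the threshold of 0.05 (two-sided Fisher's exact test, p = 0.038, Benjamini-Hochberg adjusted p = 0.152 over 8 tests). Sites outside annotated genes had the highest share, 10 of 27 (37.0%, 19.4 to 57.6; odds ratio 2.63, exact test, p = 0.0221, adjusted p = 0.152), lncRNA genes stood at 7 of 25 (28.0%) and pseudogenes at 3 of 17 (17.6%).

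Of the 164 5xA regions, 116 (70.7%, 63.1 to 77.6) had no WT partner, beside 67.7% of all 5xA regions and 68.4% of the 2627 in protein-coding genes (odds ratio 1.12, Fisher's exact test, adjusted p = 0.995). The shares were 43 of 61 (70.5%) in lncRNA genes, 31 of 44 (70.5%) in pseudogenes and 42 of 59 (71.2%) outside genes. These shares were close to the background of their list. Seen from either list, no class was detectably set apart from protein-coding genes after adjustment.

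**Figure D1:**
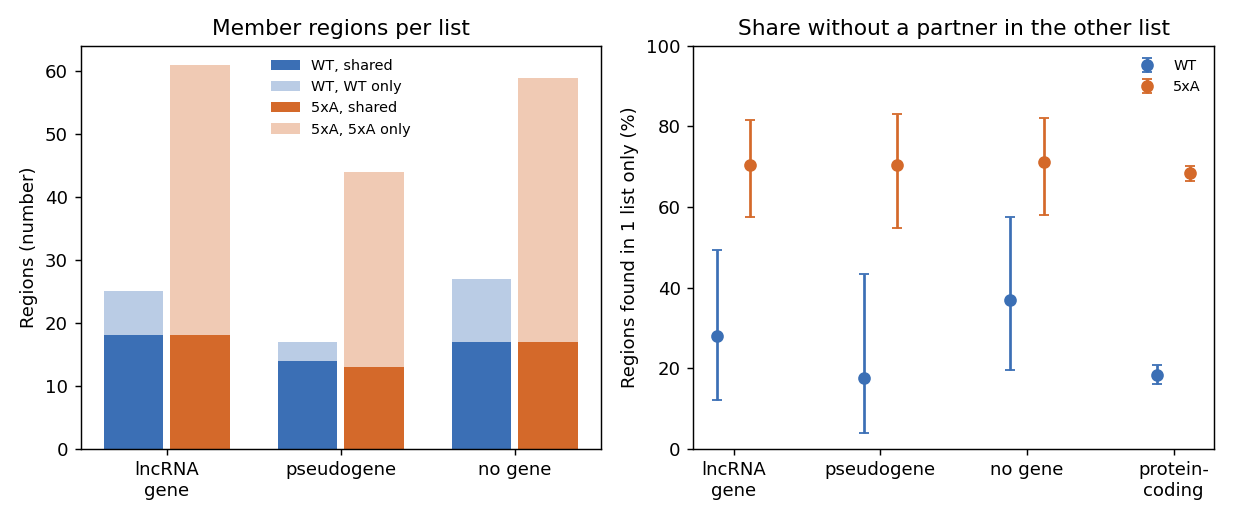
Left, number of regions in each class and list, with shared regions in full colour and regions of 1 list only in pale colour. Right, percent of regions without a partner in the other list, with exact 95% intervals, beside protein-coding genes; the 5xA shares lie at 70.5% to 71.2% in all 3 classes, and the WT interval for sites outside genes (19.4 to 57.6) begins above the protein-coding share of 18.3%, and the other class intervals include the protein-coding share of their list.

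Taken over the 3 classes, the regions were narrower than those in protein-coding genes. The median width was 93.0 bases in the WT list and 86.5 bases in the 5xA list, against 117 and 107 bases in protein-coding genes (difference of medians, two-sided permutation test, 100000 resamples, adjusted p = 0.0114 for WT and 0.0012 for 5xA over 4 tests). Regions of 70 bases or less made up 16 of 69 (23.2%) and 44 of 164 (26.8%), beside 5.94% and 15.6% in protein-coding genes. The classes were not alike in this. Outside annotated genes regions of 70 bases or less were 7 of 27 (25.9%) with WT and 22 of 59 (37.3%) with 5xA, in pseudogenes 17.6% and 27.3%, and in lncRNA genes 24.0% and 16.4%. With 5xA the lncRNA regions were thus close to protein-coding genes, with a median of 101 bases against 107, and the classes were not tested singly. Within the 5xA list, shared regions had a median of 100 bases and regions found with 5xA only one of 82.5 bases (permutation test, p = 0.0391, adjusted p = 0.0522), a difference that missed the threshold. The WT medians were 97.0 and 89.0 bases (permutation test, adjusted p = 0.646).

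**Figure D2:**
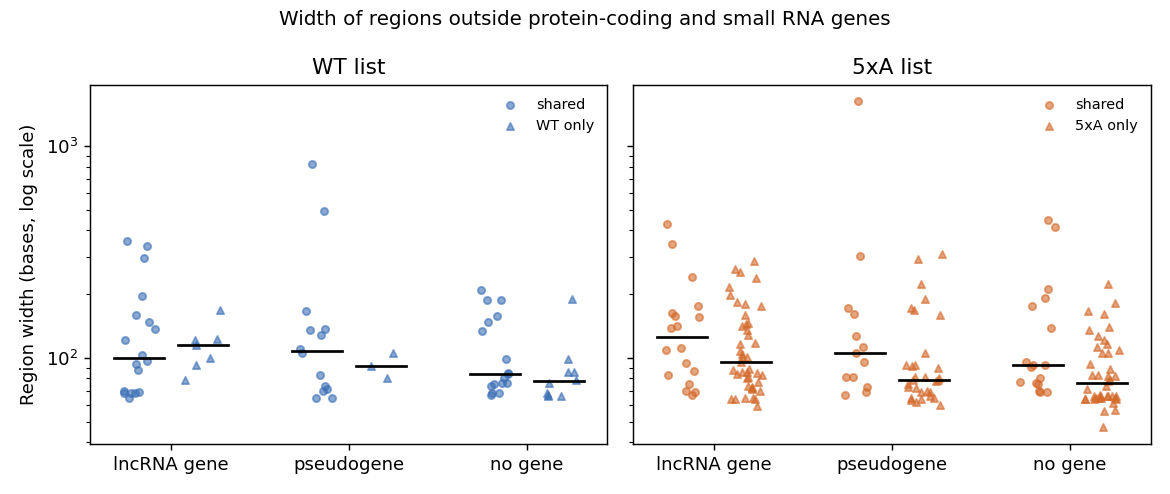
Width of each region in bases on a log scale, by class, for the WT list (left) and the 5xA list (right); circles are shared regions, triangles regions of 1 list only, and black lines medians. The lines are drawn apart for shared regions and regions of 1 list only. Taken over both, the medians of the classes lie between 80.0 and 105 bases. The widest region is the 1626-base 5xA region in AFG3L1P.

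Where both lists held a region at the same place, its borders were often nearly the same. Of 47 pairs in which a WT and a 5xA region overlapped one another alone, 19 (40.4%) had both ends within 10 bases, against 138 of 739 pairs (18.7%) in protein-coding genes. The 5xA region was the wider in 31 pairs, the WT region in 15, and 1 pair was equal, with a median difference of 4 bases (17 bases in protein-coding genes). These counts are descriptions, and narrow regions leave less room for their ends to differ.

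The lncRNA regions fell in 35 genes, of which 15 were in both lists, 3 in the WT list only and 17 in the 5xA list only. This was 0.0989% of 18196 annotated lncRNA genes with WT and 0.176% with 5xA. For the 15 genes common to both, the 5xA count was higher in 8, equal in 7 and lower in 0. PTCHD1-AS and LINC01492 are among the 8, and their 5xA regions without a WT partner lay on the strand opposite to the gene. A single region was all that 14 of the 17 5xA-only genes held.

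NORAD, a cytoplasmic lncRNA known for binding PUMILIO proteins, held the most. It is a 5343-base gene on chromosome 20 (36045618 to 36050960, minus strand) and held 4 WT and 9 5xA regions covering 987 and 1965 bases. Counted from the start of the gene, the WT regions lay at bases 215 to 336, 1194 to 1531, 2052 to 2409 and 3790 to 3958. All but the last of these overlapped 5xA regions, at 220 to 382, 1276 to 1414 and 2033 to 2461. At the second place the WT region was the wider, with 338 bases against 139. The last WT region had no 5xA partner, while 6 5xA regions between bases 773 and 3503 had no WT partner.

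LINC01061, an intergenic lncRNA of 5138 bases on chromosome 4 (119405523 to 119410660, minus strand), held 2 WT and 7 5xA regions of 196 and 911 bases in sum. Only the place at bases 3393 to 3495 (WT) and 3372 to 3482 (5xA) was shared. The other WT region, at 2636 to 2728, had no partner, and the nearest 5xA region began at 2821. OIP5-AS1, known as Cyrano and for a conserved miR-7 site, held 3 WT and 4 5xA regions, and all 3 WT regions were shared. They lay close together in a 30642-base span on chromosome 15, at bases 17677 to 17823, 17849 to 18044 and 19035 to 19102 with WT. The 5xA regions there were at 17670 to 17825, 17844 to 18085 and 19038 to 19104, nearly the same places, and a further 5xA region lay between them at 18279 to 18374.

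LINC02604 (chromosome 7, plus strand, 2178 bases) held 0 WT and 4 5xA regions inside its annotated span, and was at first sight bound with 5xA only. A further place before its annotated start (base 66904120), in no annotated gene, was however in both lists. There the WT region ran from 66903434 to 66903580 (147 bases) and the 5xA region from 66903430 to 66903844 (415 bases), on the strand of the gene. The first 5xA region counted for the gene, part of which is printed above, began at 66904026 and so crossed that start. Read with this neighbour, the locus held 1 WT and 5 5xA regions.

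**Figure D3:**
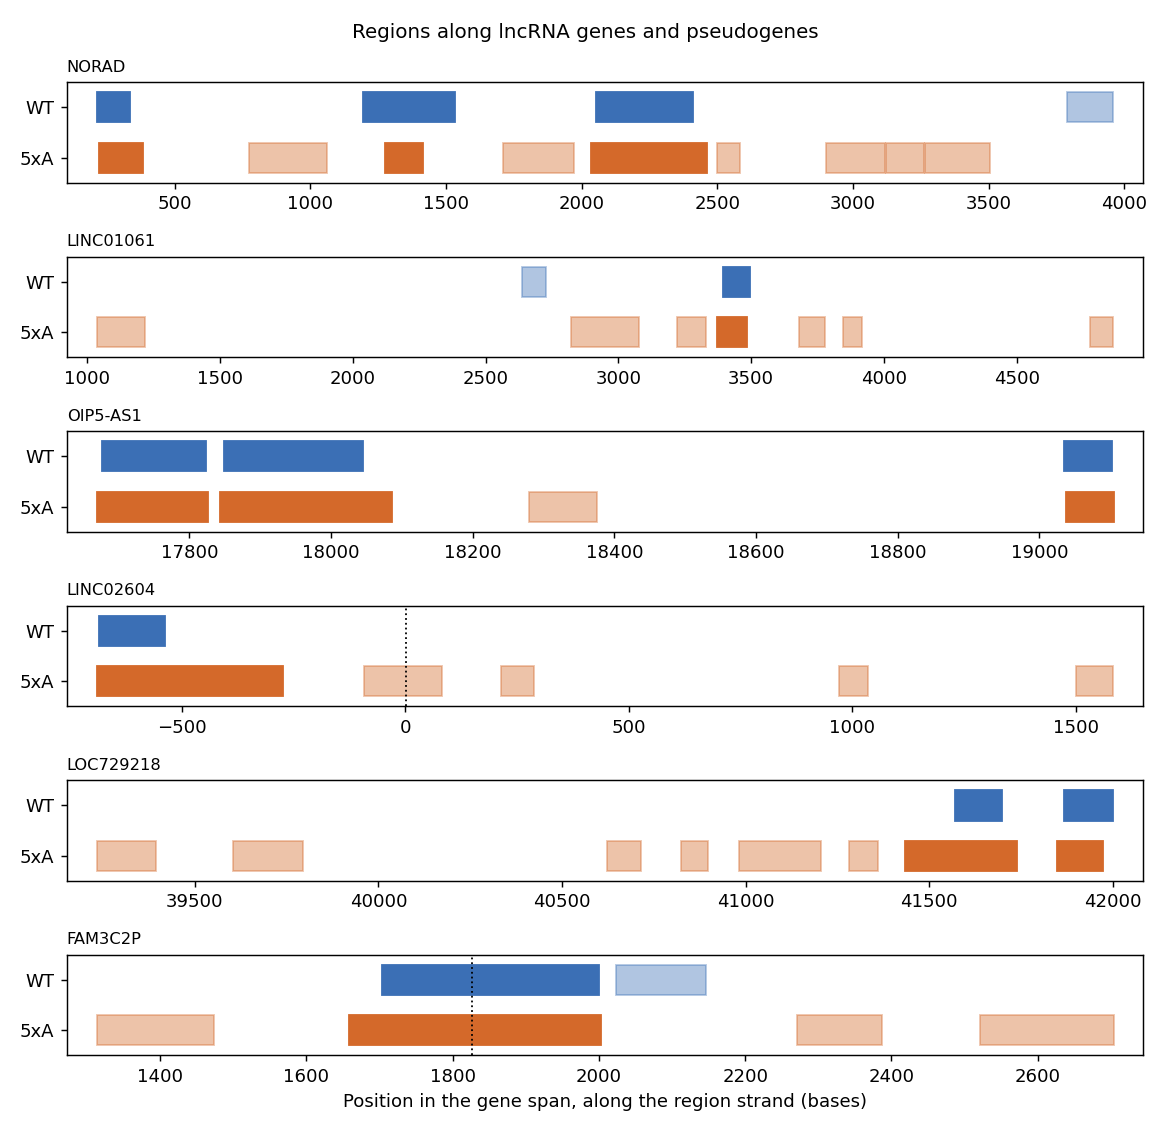
Regions along 6 gene spans, WT above and 5xA below; the x axis gives bases from the start of the gene span along the strand of the region, dotted lines mark an annotated gene border, full colour marks shared regions and pale colour regions of 1 list only. The panels were picked for their many regions, and each holds more 5xA than WT regions (NORAD 9 and 4, LOC729218 8 and 2), unlike AFG3L1P, which is not drawn and holds 1 and 2; the LINC02604 panel shows the shared place before the annotated start.

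The snoRNA host lncRNAs were represented by SNHG8, with 1 region in each list (94 WT and 157 5xA bases, shared), and by SNHG1 (1 region of 197 bases) and SNHG16 (2 regions of 80 and 146 bases), both with 5xA only. Of the 30 genes in that list, 26 held no region of these classes, GAS5 among them, and the fourth with a 5xA region was the pseudogene RPL13AP5. Of 35 lncRNAs reported as miRNA sponges or linked to AGO proteins, NORAD, OIP5-AS1 and LINC01061 held regions of these classes in both lists. LINC02604 held them in the 5xA list only, and 31 held none. Among the 31, H19 held 2 WT and 3 5xA regions, all of which touched an excluded gene, and 30 held no region of any class. Of all annotated lncRNA genes, 0.0989% (WT) and 0.176% (5xA) held a region of these classes. The snoRNA host and sponge gene lists were chosen with earlier results of these data known. Their hits can therefore not be read as a trait of such genes.

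The other gene lists are short beside the share of annotated genes with a region of these classes, which was 0.0989% (WT) and 0.176% (5xA) of lncRNA genes and 0.0840% and 0.204% of 16664 pseudogenes. At such shares a list of this size would mostly hold 0, so the zeros below say nothing particular to a list. Of 10 lncRNAs known as nuclear, MALAT1 and NEAT1 included, 0 held a region of any class in either list. The 34 miRNA host lncRNAs of the list had 0 regions of these classes. Of these, 27 held no region of any class, and the other 7 (MIR17HG, MIR100HG, MIR34AHG, MIRLET7BHG, MIRLET7A1HG, MIR181A1HG and DLEU2) held only regions that touched an excluded gene. MIR3667HG, a host gene by its name that the list did not include, held 1 WT and 2 5xA regions. Of 29 lncRNAs linked to colorectal cancer, 1 (SNHG16) held a region of these classes, with 5xA. Of 15 p53-linked lncRNAs and 23 pseudogenes described as competing RNAs, 0 did. Expression of these genes in the cells was not measured in the lists.

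The strand of the gene was known for 20 WT and 48 5xA lncRNA regions. With WT 14 lay on the strand of their gene and 6 on the opposite one, and with 5xA 38 and 10. The opposite ones with WT were in 5 genes, and 2 of the 6 regions also lay in a pseudogene inside the lncRNA span, as did 5 of the 10 with 5xA. A region on the opposite strand cannot be RNA of the lncRNA it was counted for.

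The clearest case was PTCHD1-AS, a minus-strand gene of 1100142 bases on chromosome X, whose 2 WT and 4 5xA regions were all on the plus strand. They lay in and just behind the pseudogene FAM3C2P (1827 bases), 1 pair being shared at bases 1703 to 1999 (WT) and 1658 to 2002 (5xA), across the annotated end of FAM3C2P. The last 5xA region began 694 bases past that end. FAM3C, the protein-coding gene after which it is named and which encodes a secreted protein, held 3 WT and 2 5xA regions itself. The MGC4859 regions (137 and 176 bases, shared) were likewise opposite to that gene and lay in HSPA8P8, named after a heat shock protein gene in which 0 regions were found in either list.

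Other shared lncRNA places were single narrow regions in wide genes. LOC105373224 held 70 bases in each list, displaced by 1 base, and on the strand opposite to the gene. OVCH1-AS1 held 65 WT and 95 5xA bases, MIR3667HG 68 and 69, LINC01492 68 and 75, LINC02228 97 and 87, LINC02994 69 and 83 and GTF3C2-AS2 88 and 141. With 5xA OVCH1-AS1, MIR3667HG and LINC01492 each held a second region, that of LINC01492 on the strand opposite to the gene.

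In the WT list alone were DENND5B-AS1 (122 bases, on the opposite strand), LOC100132287 (100 bases) and BCYRN1 (79 of its 200 bases). BCYRN1 encodes the short cytoplasmic RNA BC200 and is annotated as a lncRNA, so the rule kept it here. LINC01000 held 1 WT and 2 5xA regions (115 WT and 202 5xA bases in sum), none of which overlapped. FAM157C held 2 regions of 89 and 73 bases with 5xA only, in a place that a transcribed pseudogene also spans.

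The 14 lncRNA genes with a single region, found with 5xA only, held between 59 bases (LOC101927118) and 197 bases (SNHG1). LIPE-AS1 (144 bases) and LOC105373893 (135 bases) followed SNHG1 in width. Some of these regions also lay in a pseudogene named after a housekeeping gene, such as GAPDHP1 in LOC105373177 (128 bases), RPLP0P6 in LINC02613 (88 bases) and FTH1P11 in LOC101927118. HCG11 (64 bases) and LINC00673 (72 bases) were among the narrow ones.

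Pseudogenes of this class were 36 genes, 12 in both lists, 2 with WT only and 22 with 5xA only. The 22 held 1 region each. Of the 12 in both lists, 3 had more 5xA regions, 8 as many and 1 fewer, and this last was AFG3L1P.

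AFG3L1P, a transcribed relative of the mitochondrial protease genes AFG3L2 and SPG7, held the widest regions of the 3 classes described here. On chromosome 16 its WT regions ran from 89994800 to 89995294 (495 bases) and from 89995314 to 89996135 (822 bases), and a single 5xA region from 89994888 to 89996513 (1626 bases) spanned most of both. Fewer regions with 5xA here thus went with more covered bases, 1626 against 1317. LOC729218, a transcribed pseudogene of 43282 bases on chromosome 4, held 2 WT and 8 5xA regions of 263 and 1250 bases in sum. All lay on the plus strand between 118630977 and 118633744, and both WT regions were shared.

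MAT2AP1, named after the S-adenosylmethionine synthetase gene MAT2A, held 2 regions in each list, of which 1 place was shared (70 and 73 bases). MAT2A itself held 3 WT and 5 5xA regions. LOC128966597 and LOC728417 each held 1 WT region, shared, and 2 5xA regions. The remaining shared pseudogenes held 1 region in each list. They included the metallothionein copies MT2P1 (167 and 172 bases, 41.8% and 43.0% of its length) and MT1XP1 (83 and 81 bases), ANXA2P2 (137 and 161 bases), PANK3P1 (71 and 113 bases), PABPC1P10 (65 and 67 bases), RPL13AP25 (110 and 81 bases) and LOC100862682 (74 and 69 bases). HSPD1P4 (92 bases) and PABPC1P4 (105 bases) were found with WT only.

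Ribosomal protein pseudogenes, a group chosen after the values were seen, held 1 WT region (RPL13AP25) and 9 5xA regions in 9 genes, RPLP0P6 inside a lncRNA gene among them. Pseudogenes as a class had 2.59 times as many 5xA as WT regions, and 0.0840% (WT) and 0.204% (5xA) of annotated pseudogenes held one. The group was picked for its counts, and its difference from other pseudogenes was not tested. The wide ones were RPLP1P4 (308 of its 513 bases), RPL13AP5 (292 bases) and RPS28P7 (169 bases), all with 5xA only. Among the other pseudogenes found with 5xA only were FTLP3 (105 bases), HMGB1P5 (92 bases), HMGA1P3 (60 bases) and copies of Y RNA genes, RNY3P1 (81 of its 100 bases) and RNY4P5 (69 of its 95 bases). Y RNAs are short RNAs bound by the Ro60 protein. Their genes RNY3 and RNY4 held 0 and 1 WT and 1 and 1 5xA regions. ORAI1, the gene of a calcium channel, is listed as a transcribed pseudogene in the gene table used, and its 1 5xA region (172 bases) was counted in this class only for that reason.

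The gene after which a pseudogene is named was found for 8 distinct names with WT and 27 with 5xA, counting pseudogenes inside lncRNA genes too. The name rule left out some copies, such as FAM3C2P and MT2P1. Of these genes 3 (37.5%) held a WT region and 15 (55.6%) a 5xA region, while 3.46% and 7.74% of all 19974 protein-coding genes did. The 19974 were counted whether or not they are expressed in these cells. The 2 sets were not matched for expression, and their difference was not tested. More 5xA than WT regions lay in MAT2A (3 WT and 5 5xA), PANK3 (3 and 4), FTL (1 and 3) and HMGA1 (2 and 3), and in BAK1, PABPC1, PNRC2, HMGB1 and RPL13A, which held none with WT. ANXA2, GAPDH, COX6A1, RPLP1 and RPS29 held 1 in each list. IMPDH1 (2 and 1) and DUSP8 (1 and 0) held fewer with 5xA. Many of the genes named here, such as FTL, HMGA1, BAK1, PNRC2, HMGB1, IMPDH1 and DUSP8, entered only through a copy with a 5xA region. A set chosen in this way can favour 5xA. Protein-coding genes as a whole held 2.52 times as many 5xA as WT regions. The sources used here do not give how reads that match both a gene and its copy were assigned, and the part of such reads in these counts was not tested.

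Most sites outside annotated genes lay within 10 kb of one. How much of all sequence outside genes lies that close was not computed, so this is no trait particular to these sites. Of 27 WT and 59 5xA regions, 9 and 17 lay within 1 kb of an annotated gene, 11 and 23 between 1 and 10 kb, and 7 and 19 farther away. Reading along the strand of the region, 11 of 27 WT (40.7%, 22.4 to 61.2) and 15 of 59 5xA regions (25.4%, 15.0 to 38.4) lay within 5 kb behind a protein-coding gene. In the WT list these were 6 of 17 shared and 5 of 10 WT-only regions, and in the 5xA list 6 of 17 shared and 9 of 42 5xA-only regions (two-sided Fisher's exact tests, adjusted p = 0.687 and 0.656). Of these, 6 WT and 5 5xA regions lay behind a gene known to be on the same strand. The others lay behind genes whose strand is not in the tables, apart from those behind ARNT (both lists) and MANBAL (5xA), which are on the opposite strand.

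Among sites outside genes, the longest series by span (8420 bases) lay behind ZNF460, a zinc finger gene on the plus strand of chromosome 19. It ran on past the 5 kb window. The WT list held a region of 66 bases that began 2066 bases past the gene end and one of 210 bases at 4049, and the 5xA list held 6 regions from 4061 to 10404 bases past the end. Only the place at 4049 (WT) and 4061 (5xA) was shared, with widths of 210 and 211 bases. ZNF460 itself held 0 regions in either list.

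Behind POMK on chromosome 8, a gene that encodes a kinase acting on dystroglycan sugars, the WT list held 2 regions (85 and 188 bases, beginning 712 and 2903 bases past the end of the span). The 5xA list held 7 regions from 712 to 7129 bases past it, and both WT places were shared. POMK held 0 regions within its span, and its own strand is not in the tables. On chromosome 1 the stretch from 68386345 to 68391358 held 1 WT region (187 bases, shared) and 7 5xA regions of 82 to 222 bases, all on the plus strand. The nearest annotated gene before it, the pseudogene ELOCP18, ended 10683 bases away, and the nearest protein-coding gene on that side, WLS, 153799 bases away. Each of these 3 stretches, picked for their many regions, had more places bound with 5xA than with WT.

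**Figure D4:**
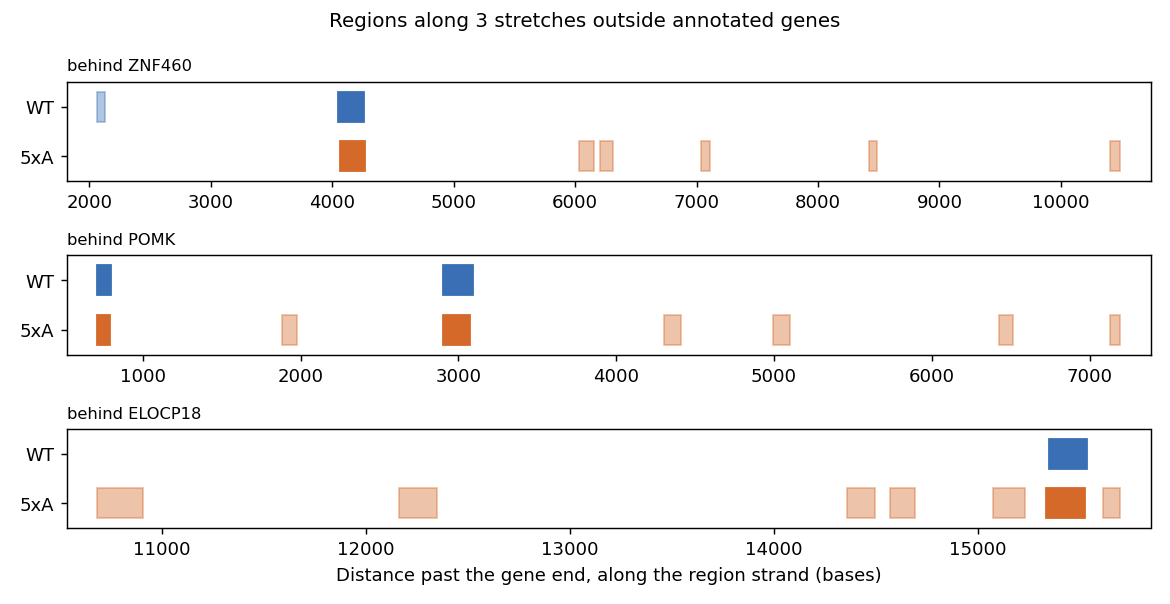
Regions in 3 stretches that hold no annotated gene, WT above and 5xA below; the x axis gives bases past the end of the named gene along the strand of the region, full colour marks shared regions and pale colour regions of 1 list only. The WT rows hold 2, 2 and 1 regions and the 5xA rows 6, 7 and 7.

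Other shared sites outside genes were single. The one with most bases lay on the minus strand of chromosome 9, with a WT region of 158 and a 5xA region of 447 bases. It lay 3231 (WT) and 2931 (5xA) bases upstream of ZBTB5, a zinc finger gene on the same strand, in which both lists held 2 regions. Between SYTL3 and EZR on chromosome 6, the regions (76 and 80 bases) began at the same base, 158765223. A chromosome 6 place from 26341513 (WT) and 26341509 (5xA) ended at the same base, 26341646, on the minus strand. A site on chromosome 2 at 139892397 (76 and 70 bases) lay 159109 bases past the nearest gene behind it and began at the same base in both lists.

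Several narrow shared sites had nearly the same borders in both lists. On chromosome 9 a site at 41212015 was 68 bases wide with WT and 69 with 5xA, on chromosome 22 one that began 24806 (WT) and 24814 (5xA) bases past DUXAP8 was 75 and 76 bases wide, and on chromosome 12 one behind PPHLN1 was 84 and 75 bases wide. Behind EEF1A2 on chromosome 20 the WT (74 bases) and 5xA (96 bases) regions touched only at their edges, from 63486908 to 63486919.

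WT-only sites were near gene ends in some cases, such as GPD1L (314 bases past the end, 76 bases wide), ZNF543 (1443 bases, 86 wide) and ZNF724 (697 bases, 99 wide), each on the strand of the gene. The widest WT-only site, 190 bases on chromosome 8, lay 360 bases behind the span of TNFRSF10A, a death receptor gene. With 5xA only, regions lay 106 bases past NECTIN3 (109 bases wide) and 224 bases past the histone gene H2BC15 (66 bases wide). The PANK3 region printed above ended 20 bases before the annotated start of that gene, which encodes a pantothenate kinase of coenzyme A synthesis and held 3 WT and 4 5xA regions itself.

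Regions of all classes within 10 kb of each other on 1 strand were then joined into loci, a grouping chosen after the values were seen. The 233 regions made 122 loci, 43 with both forms, 14 with WT only and 65 with 5xA only. Thus 75.4% of the 57 WT loci also held a 5xA region, and 39.8% of the 108 5xA loci also held a WT region. Of the 116 5xA regions without a WT partner, 48 (41.4%) lay in a locus that also held a WT region. The 9 loci with 3 or more 5xA regions all held WT regions, 57 5xA and 19 WT regions in sum, a ratio of 3.0. Elsewhere the ratio was 107 to 50, or 2.14. These loci were ranked by their 5xA count, so their higher ratio follows in part from that choice. At the other end, 62 of the 65 loci found with 5xA only held 1 region.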

How the data were processed

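Both deposited files are region lists in BED layout (start and end on hg38), 1 for the 2 FH-AGO2_WT and 1 for the 2 FH-AGO2_5xA immunoprecipitates, per the labels. Every row of the deposited lists has a score of 0, and the score was not used. The submitters' processing notes name cutadapt 1.9.1 and TopHat2. How peaks were called and thresholded, how inputs and knockout samples entered, how replicates were merged and how reads with several matches were treated is unstated in the sources used here. The deposited data hold no depth per region, so intervals cover the sampling of regions only.

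Regions were classed by overlap of at least 1 base with a RefSeq gene span of GRCh38.p14, lncRNA before pseudogene. Gene strand came from RefSeq's promoter windows, which give it for 11383 of 18196 lncRNA genes and for 0 pseudogenes. Overlapping windows of opposite strands matched as reverse complements in 3111 of 3111 pairs. Shared calls were equal to those of bedtools 2.31.1 (967 WT and 944 5xA regions). Fisher's exact tests (scipy 1.17.1) and permutation tests of medians were two-sided, adjusted by Benjamini-Hochberg over 8 and 4 tests, and the functions were tested on simulated data.

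Members and the 7 gene lists were chosen with earlier results of these data known. Genes were named when they held 2 or more regions in a list, belonged to a gene list, or had 1 of the 5 widest regions of a class, as were the 6 shared sites outside genes with most covered bases. Single genes beyond this, and the grouping into loci, were chosen with their values in view. The search for miRNA motifs was limited to the promoter windows, since no genome sequence was used here. It left out the regions on chromosome 8. Alternatives covered the overlap, strand, joining, class and window rules.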

Additional observations from a re-analysis of the deposited data

How the results depend on the processing

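No class passed the threshold against protein-coding genes under any of the alternatives run for it. Of 134 alternative values, 128 were marked as unchanged, which for tested values meant the same direction and the same side of the threshold. The region counts per class are among the 128. They had no test, so the mark says little about them. With a reciprocal overlap of 50%, the share found in 1 list only was 32.0% (WT, lncRNA genes), 72.1% (5xA, lncRNA genes) and 72.7% (5xA, pseudogenes), each then below protein-coding genes (33.7% and 73.7%). The WT pseudogene share turned from below to above protein-coding genes when regions within 50 bases counted as shared (17.6% against 16.6%) and when the 4 loci with most regions were left out (20% against 18.3%, an alternative chosen after seeing the data). With the class taken at the midpoint, the width difference between shared and 5xA-only regions passed, at 22 bases (permutation test, adjusted p = 0.0342). The cause of these changes was not tested. The WT share for all classes together ranged from 27.5% to 37.7%, with adjusted p from 0.104 to 1 (exact tests). The lower widths than in protein-coding genes passed under both alternatives run. No paired analysis was possible because each genotype has 1 list made from both replicates, and for the same reason no replicate could be left out. With 25, 17 and 27 WT regions per class, the intervals of the shares are wide.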

Other observations

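A further 36 WT and 60 5xA regions lay on contigs or on chromosome Y and were left out by the rule, so copies of these transcripts on alternate contigs are not counted above. On chromosome 9 a narrow site outside genes was bound in both lists 6625 (WT) and 6605 (5xA) bases from the pseudogene CNTNAP3P3 on the minus strand (67 and 93 bases). A 67-base region on the plus strand, with 5xA only, lay 6952 bases from CNTNAP3P9, a pseudogene of the same name series. Whether these sites are copies of each other was not tested, since their sequence was not used here.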
